A study of Mus musculus with 6 samples.

Results

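The library labelled Bmal1 CKO 2 had 832 chromatin immunoprecipitation (ChIP) peaks that met 3 conditions. They lay at the limits of protein-coding genes, overlapped no peak of the other 5 libraries, and belonged to genes whose limits carried no peak summit in Control 1. They were chosen as follows. A peak was kept when it shared not even 1 bp with a peak in any other list and when its summit lay no more than 1 kb from the first or last base of a protein-coding gene (a gene end). The gene itself had to lack any Control 1 summit at that distance from both of its ends. Of the 138254 peaks of Bmal1 CKO 2, 63317 (45.8%) overlapped no other list and 15487 had a summit at a gene end. The 832 peaks were 5.37% of the gene-end peaks and 0.602% of that list, and the 6 lists together held 320474 peaks. They lay at 796 genes of 21900, or 3.63% of the protein-coding genes. These are called member peaks and member genes here. They were chosen by the called peak positions of these 6 lists, so that their being in 1 library only is a description and not a result, and nothing about genotype follows from 1 library.

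The study compared retinas of wild-type mice (Control 1 to 3) with retinas of mice in which Bmal1 was conditionally knocked out (Bmal1 CKO 1 to 3). All mice were of strain C57BL/6, weaned at postnatal day 20 and given no treatment. Chromatin was recovered with a rabbit antibody against BMAL1, and libraries were made with a ThruPlex kit. The labels do not name the Cre driver, the cells that lost the gene, the age at collection or the hour of day, and they do not say whether a library pooled animals. Whole retina holds many cell types, so a peak cannot be assigned to one of them, and peak lists measure neither expression nor the loss of Bmal1.

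BMAL1 (listed as Arntl in mouse gene tables) pairs with CLOCK, and the pair activates transcription from E-box elements, of which CACGTG is the canonical form. In the retina the clock tunes photoreceptor physiology to the day. Many genes at which the member peaks lay belong to large families that sit in tandem arrays and serve other organs: odour and pheromone receptors, interferons, secreted gland proteins and germ-line genes. Copies within such arrays can be nearly identical, and sequencing reads from them cannot always be placed on 1 copy.

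The upstream stretches of 6 member genes are given as examples. They do not span the full range, and most member genes had their summit elsewhere. Each is the 250 bases before the annotated start on the gene's own strand, 5′ to 3′, taken from RefSeq (build GRCm38.p6, the assembly called mm10), and in each the peak summit fell inside the stretch. Capitals mark CG dinucleotides, the sites of DNA methylation, whose density separates the promoter classes described below. Crx (chr7:15879956-15880205, minus strand), Opn1mw (chrX:74127216-74127465, plus strand), Pramel48 (chr5:95456556-95456805, plus strand) and Vmn2r129 (chr4:156330853-156331102, plus strand) are poor in CG. Pqbp1 (chrX:7899270-7899519, minus strand) and Psmb3 (chr11:97703184-97703433, plus strand) are rich in it.
Crx: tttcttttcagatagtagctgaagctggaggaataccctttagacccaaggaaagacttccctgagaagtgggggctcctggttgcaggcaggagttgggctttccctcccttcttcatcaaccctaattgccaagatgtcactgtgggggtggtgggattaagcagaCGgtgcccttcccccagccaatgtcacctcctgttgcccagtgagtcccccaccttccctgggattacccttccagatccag
Opn1mw: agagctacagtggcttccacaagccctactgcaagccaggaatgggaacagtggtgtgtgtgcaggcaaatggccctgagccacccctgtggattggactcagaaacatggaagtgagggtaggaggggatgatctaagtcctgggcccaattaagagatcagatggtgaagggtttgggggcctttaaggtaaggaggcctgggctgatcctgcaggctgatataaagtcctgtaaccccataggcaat
Pramel48: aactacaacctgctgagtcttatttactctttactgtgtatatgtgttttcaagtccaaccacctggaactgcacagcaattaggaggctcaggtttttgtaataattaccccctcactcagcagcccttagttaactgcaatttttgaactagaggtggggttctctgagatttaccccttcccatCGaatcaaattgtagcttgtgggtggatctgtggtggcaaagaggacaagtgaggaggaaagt
Vmn2r129: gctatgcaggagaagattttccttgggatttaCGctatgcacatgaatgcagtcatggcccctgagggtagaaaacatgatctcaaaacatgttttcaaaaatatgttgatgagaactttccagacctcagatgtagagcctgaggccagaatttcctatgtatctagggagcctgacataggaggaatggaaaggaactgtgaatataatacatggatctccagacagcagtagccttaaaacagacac
Pqbp1: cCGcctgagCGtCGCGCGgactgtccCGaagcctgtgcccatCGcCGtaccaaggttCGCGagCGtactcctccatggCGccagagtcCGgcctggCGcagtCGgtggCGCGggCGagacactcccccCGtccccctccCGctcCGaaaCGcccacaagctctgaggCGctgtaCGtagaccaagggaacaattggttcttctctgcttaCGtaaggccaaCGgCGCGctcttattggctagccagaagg
Psmb3: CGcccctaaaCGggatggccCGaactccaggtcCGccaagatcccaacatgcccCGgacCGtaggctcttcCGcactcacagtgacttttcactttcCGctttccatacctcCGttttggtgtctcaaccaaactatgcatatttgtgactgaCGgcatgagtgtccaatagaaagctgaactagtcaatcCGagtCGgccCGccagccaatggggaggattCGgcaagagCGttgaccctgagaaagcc
Opn1mw, the cone opsin for medium wavelengths, had 0 CG in this stretch. Crx (a photoreceptor transcription factor), Pramel48 (a germ-line gene) and Vmn2r129 (a pheromone receptor) had 1 each. Psmb3, a proteasome subunit, had 15, and Pqbp1, a splicing-related protein, had 28. Pqbp1 was picked after its values were seen, and the stretch of the member gene Slc35e1, not shown, held more CG (38).

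Across the member genes the CG-poor form prevailed. A 300-base start window (250 bases before to 50 after the start) was at hand for 660 of the 796 member genes. Their windows held a median of 4 CG dinucleotides and 48.3% G + C. Windows of genes with an end summit in both Bmal1 CKO 2 and Control 1 (54.6% of all genes) held a median of 20 CG and 60.3% G + C (9675 windows). Genes with an end summit in neither list (26.3% of all) had 3 CG and 46.3% (4549 windows), and genes reached by Control 1 alone under the same rule had 10 CG and 56.7% (2449 windows). The member windows thus lay close to those of genes with no peak at their ends in either library. At least 15 CG were present in 121 member windows (18.3%), against 47.4% of all 17492 windows and 67.2% of those with a summit in both libraries. The share was 39.9% for Control 1 alone and 12.9% for genes with a summit in neither, so members were above this last class. Because the rule left out every gene with a Control 1 end summit, that class is the nearest comparison. Member genes whose summit lay nearest the start had a median of 5 CG (442 windows), and those with the summit at the other end had 3 (218 windows).

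**Figure D1:**
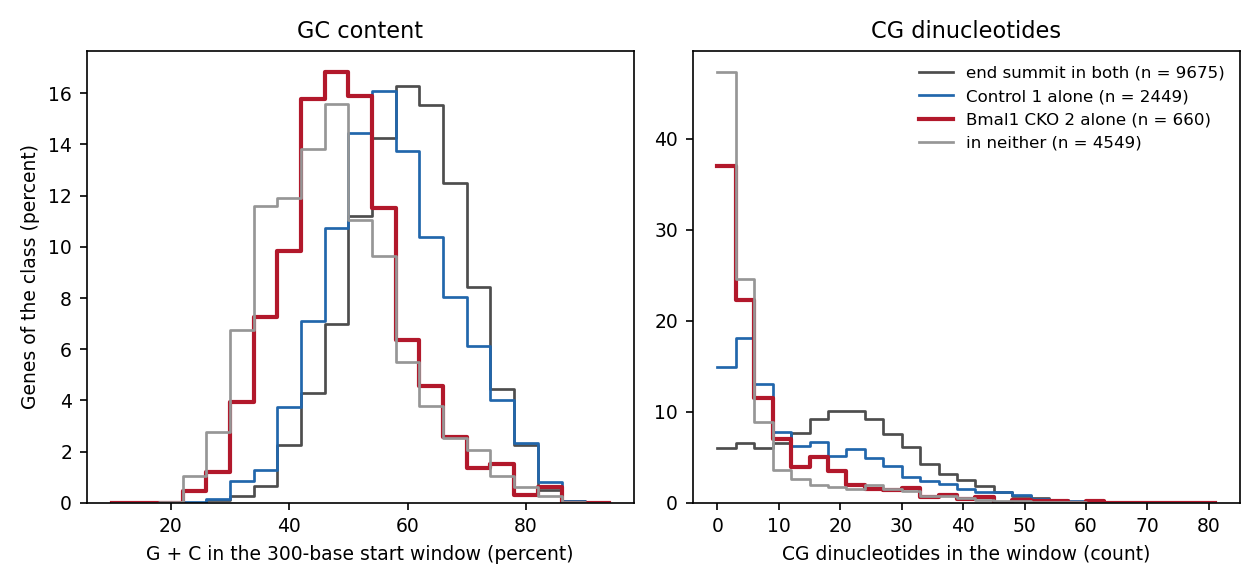
Percent of genes (vertical axes) by G + C content (left) and by number of CG dinucleotides (right) in the start window of 300 bases, for 4 classes of genes by where end summits were called. The line for Bmal1 CKO 2 alone (n = 660) peaks at low CG counts beside the line for genes with no end summit (n = 4549), while genes with a summit in both libraries (n = 9675) centre near 20 CG.

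The E-box hexamer was looked for in the same windows. CACGTG reads the same on both strands and was the only motif searched. It was present in 37 of 660 member windows (5.61%), in 7.91% of all windows, in 10.1% of those with a summit in both libraries and in 3.78% of those with a summit in neither. Of the 111 member genes whose summit fell inside the window, 6 held the hexamer there. In at least 3 of these both the hexamer and the summit lay upstream of the start. Some member genes were left out when upstream stretches were drawn, so the count may be higher. For 3 genes the 250 upstream bases are given with CACGTG in capitals, because member peak and E-box lie in the same short stretch there. They are Tubb5 (chr17:35838302-35838551, minus strand), Mydgf (chr17:56183921-56184170, minus strand) and Gm815 (chr19:26885675-26885924, plus strand).
Tubb5: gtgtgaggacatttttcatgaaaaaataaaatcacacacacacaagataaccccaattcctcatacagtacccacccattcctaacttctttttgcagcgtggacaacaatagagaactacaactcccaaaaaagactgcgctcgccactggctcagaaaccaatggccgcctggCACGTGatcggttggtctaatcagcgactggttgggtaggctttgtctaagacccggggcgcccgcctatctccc
Mydgf: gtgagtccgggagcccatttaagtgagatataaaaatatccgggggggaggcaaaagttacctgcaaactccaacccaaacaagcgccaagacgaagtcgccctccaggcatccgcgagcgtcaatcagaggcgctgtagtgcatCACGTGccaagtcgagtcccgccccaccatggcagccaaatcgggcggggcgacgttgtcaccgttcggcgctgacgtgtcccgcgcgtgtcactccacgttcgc
Gm815: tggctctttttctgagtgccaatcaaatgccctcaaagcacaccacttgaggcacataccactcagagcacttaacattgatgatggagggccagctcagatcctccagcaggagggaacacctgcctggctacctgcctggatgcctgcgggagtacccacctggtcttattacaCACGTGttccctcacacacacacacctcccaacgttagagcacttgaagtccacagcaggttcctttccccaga
The peak at Tubb5, a beta-tubulin gene, had a fold enrichment of 2.18 and a summit 58 bp before the start. Mydgf, a secreted growth factor, had 2.17 at 27 bp, and the gene model Gm815 had 2.67 at 37 bp. All 3 folds lay below the median of the member peaks, 2.83, and the 3 genes were picked for the hexamer after the values were seen. A match is a string of letters and not a measured binding site.

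The member peaks were somewhat weaker than their list as a whole and close to its other peaks found in no other library. The fold enrichment over local background and the −log10 q-value are the authors' own values for each peak, relative to its own library. Member folds ran from 1.84 to 6.00 with a median of 2.83, and their −log10 q-values from 1.50 to 16.4 with a median of 3.53. The whole list had medians of 2.96 and 3.87, and its 63317 peaks in no other list had 2.93 and 3.53. Gene-end peaks that were likewise alone, but at genes with a Control 1 end summit (1441 peaks), had 2.63 and 3.45. Weak values were therefore shared by the peaks found in Bmal1 CKO 2 alone.

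The peaks called in both long lists were stronger. Gene-end peaks of Bmal1 CKO 2 that overlapped Control 1 and no other list (13131 peaks, 84.8% of the gene-end peaks) had a median fold of 3.01 and a median −log10 q-value of 5.05. Solving fold and p-value for reads gave a median of 23.5 fragments at a member summit over a background of 6.80, against 33 over 9.80 for the overlapping peaks. The background sat at its genome-wide floor of 5.83 fragments under 315 member peaks (37.9%), under 8.47% of the overlapping ones, and under 38.5% of a sample of the whole list. Member peaks spanned 200 to 730 bp (median 243.5 bp), and the overlapping peaks had a median of 431 bp. The 1441 other lone gene-end peaks had 26 fragments over 9.14 and a median width of 238 bp. Against the overlapping peaks the members had fewer fragments and a narrower span, though the ranges ran through each other.

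**Figure D2:**
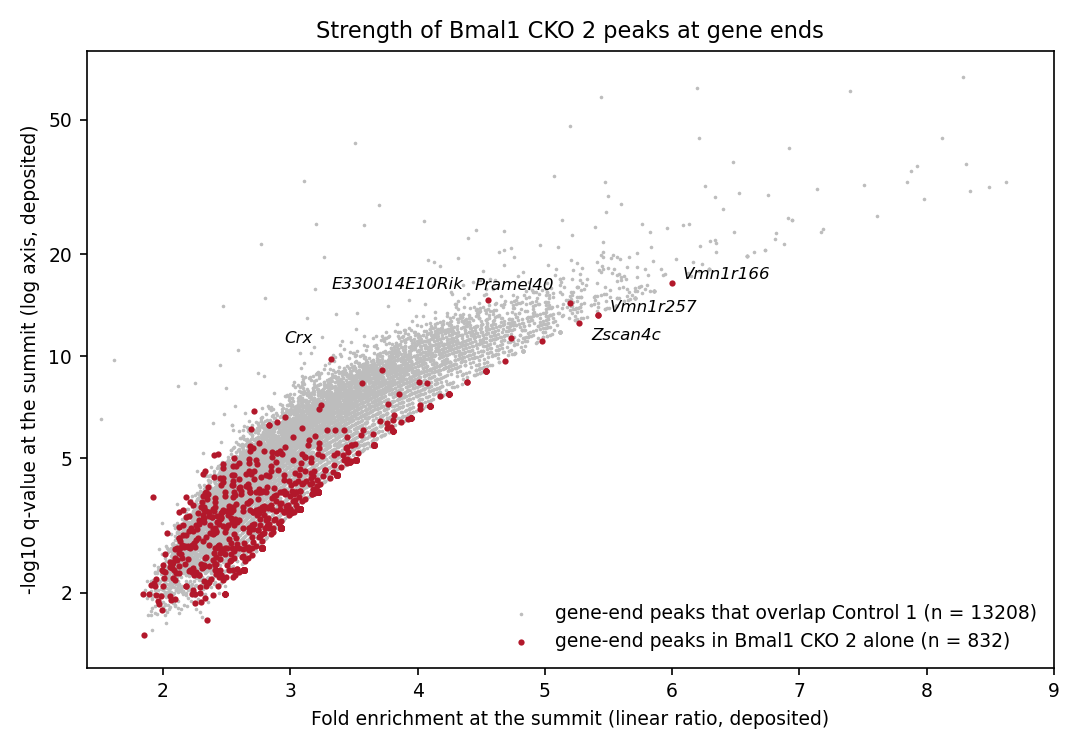
Fold enrichment (linear axis) against −log10 q-value (log axis) for single Bmal1 CKO 2 peaks at gene ends. The 832 member peaks (red) lie within the cloud of the 13208 peaks that overlap Control 1 (grey) and do not exceed a fold of 6.00; the curved lower edge is formed by peaks over the floor background, and Rhox3a lies on the point marked Vmn1r257.

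The 2 long lists set the frame of the comparison. Control 1 had 179475 peaks and Bmal1 CKO 2 had 138254, while the other 4 lists had 372 to 1444, so that in practice the members were peaks absent from Control 1. The floor background was 3.46 fragments in Control 1 and 5.83 in Bmal1 CKO 2, a ratio of 1.69, which makes Bmal1 CKO 2 the deeper library by this estimate. Scaled to the depth of Control 1, 813 of the 832 member peaks (97.7%) reached the lowest −log10 p-value of the Control 1 list, 2.76. So did 99.3% of the overlapping peaks and 97.4% of the other lone gene-end peaks. The scaling multiplied fragments and background by the same ratio, without sampling noise. Since nearly all peaks of each kind passed, it does not set the members apart, and the part of depth was not tested. The part of depth, of library quality and of genotype in the members cannot be told apart with 1 library on each side. By the mirrored rule, Control 1 had 3784 gene-end peaks alone, at 3173 genes (14.5% of all protein-coding genes, and 35.2% of those without a Bmal1 CKO 2 end summit), beside the 796 member genes. Bmal1 CKO 2 had an end summit at 58.8% of the genes and Control 1 at 69.5%.

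The distance from member peaks to Control 1 peaks was partly set by the rule. It barred overlap, and it barred Control 1 summits within 1 kb of the gene's ends. The gaps below are therefore a description, with no other kind of peak set beside them. The nearest Control 1 peak lay 30 to 125933 bp away, with a median gap of 4956.5 bp. It was within 500 bp for 53 member peaks (6.37%), within 1 kb for 97 (11.7%) and within 5 kb for 419 (50.4%). At the edge of the 1 kb window, the last peaks included were at Wdr17 (988 bp, fold 3.51), Ccdc65 (990 bp, fold 2.20) and Itprid2 (998 bp, fold 3.19). The first peaks left out were at Olfr1008 (1003 bp, fold 2.63) and Lag3 (1003 bp, fold 3.06). At the edge of the Control 1 condition, Hsd3b3, Foxc2 and Tm7sf2 counted as members with the nearest Control 1 summit 1005, 1008 and 1008 bp from a gene end. Araf, Inhbe and Rhox3c did not, with 998, 998 and 974 bp. Peaks on either side of each edge had folds in the same range.

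The strongest member peaks lay at genes whose start windows recur at other genes. The highest −log10 q-value, 16.4, belonged to Vmn1r166, a pheromone receptor, with 40 fragments over 5.83 and a fold of 6.00. It was followed by the gene model E330014E10Rik (14.7, fold 4.55), by Pramel40 (14.4, fold 5.20), a germ-line gene related to a tumour antigen, and by Vmn1r257 and Rhox3a (each 13.3, fold 5.42). Rhox3a is a homeobox gene of the X-linked reproductive cluster. Zscan4c, a gene of the earliest embryo, came next (12.5, fold 5.27). For each of these 6 genes at least 50% of the 31-base words in the start window recurred in the window of another gene, which is called a near-copy here. In Vmn1r166, Vmn1r257 and Rhox3a every word recurred. The measure describes the start of the gene only: the summits of these 6 peaks lay outside the window, and the sequence under them was not assessed.

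Near-copy genes made up a smaller share of the weaker member peaks. Of the 26 genes at the 25 strongest member peaks, 25 had a window and 16 were near-copies, but the summit lay inside the window in only 2 of the 16. The 25th place was tied: 6 peaks had its value, and 1 of them, at Gm5724 (not a near-copy), fell outside the 25 by position. Among member genes with a −log10 q-value of 5 or more, 37 of 120 were near-copies (30.8%), and among the rest 35 of 540 (6.48%). Over all member genes the share was 10.9% (72 of 660), and over all genes 6.11%. Genes with an end summit in neither list had the larger share of 13.8% (628 of 4549). Members as a whole thus lay below that class, and only their stronger part lay above it. At genes with an end summit in both libraries the near-copy share was 4.02% above the same q-value and 1.59% below it. At genes of Control 1 alone it was 4.55% and 1.97%. The values of near-copy genes are uncertain, because reads from 1 copy could have been placed on another; how the authors placed such reads is not given in the sources used here, and its part in these peaks was not tested.

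Some of the strongest peaks lay at genes that were not near-copies. Crx, the homeodomain factor needed for photoreceptor gene expression, had the ninth strongest peak of the set. Its summit (chr7, 15879989) lay 34 bp before the start of the gene (chr7:15865947-15879955, minus strand), with 51 fragments over 14.7, a fold of 3.32 and a −log10 q-value of 9.79. The nearest Control 1 peak was 4067 bp away. Srsf1, a splicing factor, had 30 fragments over 5.83 at a summit 360 bp past its other end (fold 4.54). Zbed3, a zinc finger protein of Wnt signalling, had 40 over 10.02, 551 bp inside its other end (fold 3.72), with a Control 1 peak 294 bp away. Nlrp1b, an inflammasome sensor, had 31 over 5.83, 475 bp inside its start (fold 4.68), and a weaker member peak at its other end (fold 3.03). None of these windows reached 15 CG except that of Srsf1, which held 22.

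Of the remaining strong peaks many were again at near-copies: Gm10670, Gm8271, Pramel48, Gsta1, Amy2a4, Gm10220, Adam6a, Gm13871, Gm13275 and Gm13278. At a −log10 q-value of 9.03 stood the gene model Gm8271, Pramel48 and the odour receptor Olfr846 (each fold 4.54). Between 8.39 and 8.35 stood Gsta1, a glutathione transferase (fold 4.01), Lipi, a lipase (fold 4.39), Amy2a4, a pancreatic amylase (fold 4.39), Wfdc11, a small protease-inhibitor-like protein (fold 3.57), and the gene model Gm10220 (fold 4.07). Adam6a, a sperm surface protein, Zfp972, a zinc finger gene, and the gene models Gm13871 and Gm12695 each had a fold of 4.24. Gm13275 and Gm13278 shared 1 peak of the same fold between them. Gm10670 (fold 4.98) and Gm904 (fold 4.73) ranked above Crx.

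Member summits were less concentrated at gene starts than the shared ones. Gene strand was at hand for 705 of the 849 pairs of peak and gene. The nearest end was the start in 456 of these (64.7%), against 86.5% of 13137 pairs at genes with an end summit in both libraries and 73.2% of 3059 pairs of Control 1 alone. Of 491 member summits no more than 1 kb from a start, 218 (44.4%) lay within 250 bp, against 51.1% of 11490 summits at genes with both. The median distance of member summits was 279.5 bp at the start and 502 bp at the other end. For Control 1 alone it was nearly the same at the start, 280 bp, and 539 bp at the other end. At genes with an end summit in both it was 239 and 538 bp. The member summit lay outside the gene in 296 pairs (34.9%), and in 105 pairs it lay no more than 1 kb from both ends of a short gene. In all, 49 genes had more than 1 member peak, with at most 3 at a gene (Laptm5, Nrg4, Sectm1a and Zbtb3), and 16 peaks served more than 1 gene. Among these, 1 summit served Dbp and Car11, another H2ac13 and H2bc13, and another Ugt1a5, Ugt1a7c and Ugt1a9.

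**Figure D3:**
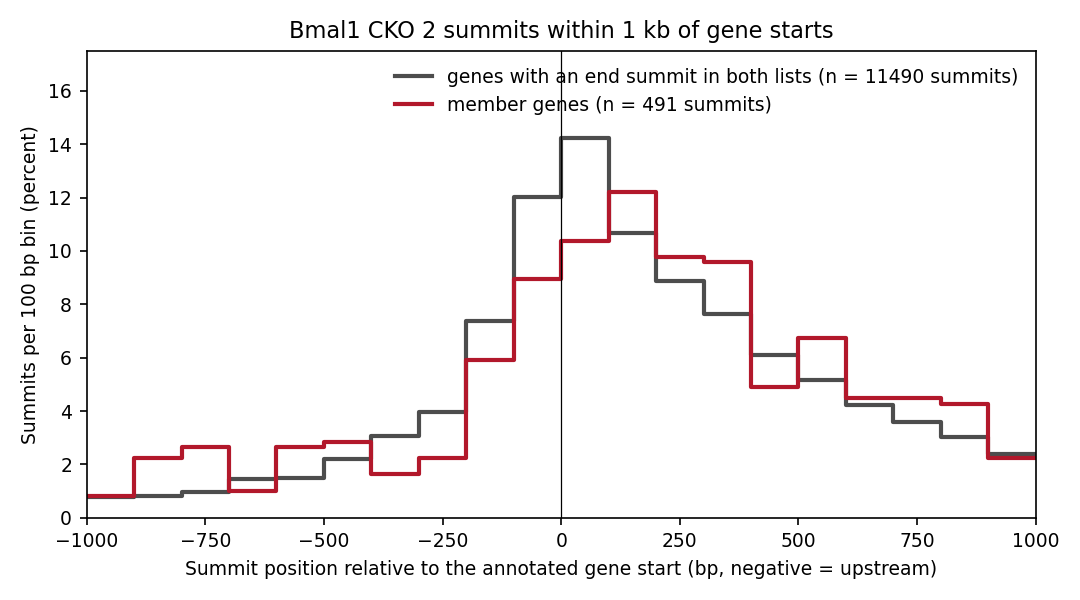
Percent of Bmal1 CKO 2 summits per 100 bp bin (vertical axis) by position relative to the annotated gene start (horizontal axis, bp). Summits of member genes (red, n = 491) spread more evenly than those of genes with an end summit in both libraries (grey, n = 11490), with 44.4% against 51.1% within 250 bp of the start.

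The member genes were described by 80 gene families, found by their symbols, and by 37 lists of marker genes for tissues and cell types. Of the 796 member genes, 384 belonged to a family on the list, 79 of them as gene models without a name. For each family the members are counted among all its genes and among its eligible genes, meaning those without a Control 1 end summit. Only eligible genes could become members, and over all protein-coding genes 796 of 6684 did, or 11.9%. A family may hold many or few members merely because Control 1 had few or many summits at its genes, and the share of eligible genes shows this.

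Chemosensory receptors were the most numerous named group. Most of these are the G protein-coupled receptors of the nose, vomeronasal organ and taste buds, each expressed in few sensory neurons. Formyl peptide and Mas-related receptors, which serve immune cells and skin sensory neurons as well, were counted with them. Together they made up 101 of the 796 member genes (12.7%). The 95% Wilson interval of that share, 10.6 to 15.2%, covers counting error only and treats genes as independent, which neighbours in 1 array are not. It serves only to compare the settings given at the end. The members were 6.54% of all 1545 chemosensory receptor genes. Of their 1292 eligible genes, however, 7.82% were members, below the 11.9% of all genes. An end summit was found in neither library at 1190 of them, and in Control 1 alone at 102. The number of members was thus near the number in the mirrored class.

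The olfactory receptors had 76 member genes of 1110 (6.85%), on 13 chromosomes, and 91 in Control 1 alone. Their folds ran from 2.40 to 4.54, led by Olfr846 and by Olfr1181, Olfr20 and Olfr418 (each 4.10). Vomeronasal type 1 receptors had 10 of 231 (4.33%), led by Vmn1r166, Vmn1r257, Vmn1r258 (fold 3.95) and Vmn1r101 (fold 3.81), and 4 in Control 1 alone. Vomeronasal type 2 receptors had 11 of 124 (8.87%), led by Vmn2r5 (fold 3.81), Vmn2r129 (fold 3.79), Vmn2r117 and Vmn2r32 (each 3.66), and 3 in Control 1 alone. Of the genes without a Control 1 end summit, these families gave 8.51%, 4.46% and 9.82% in turn, all below the share of all genes.

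**Figure D4:**
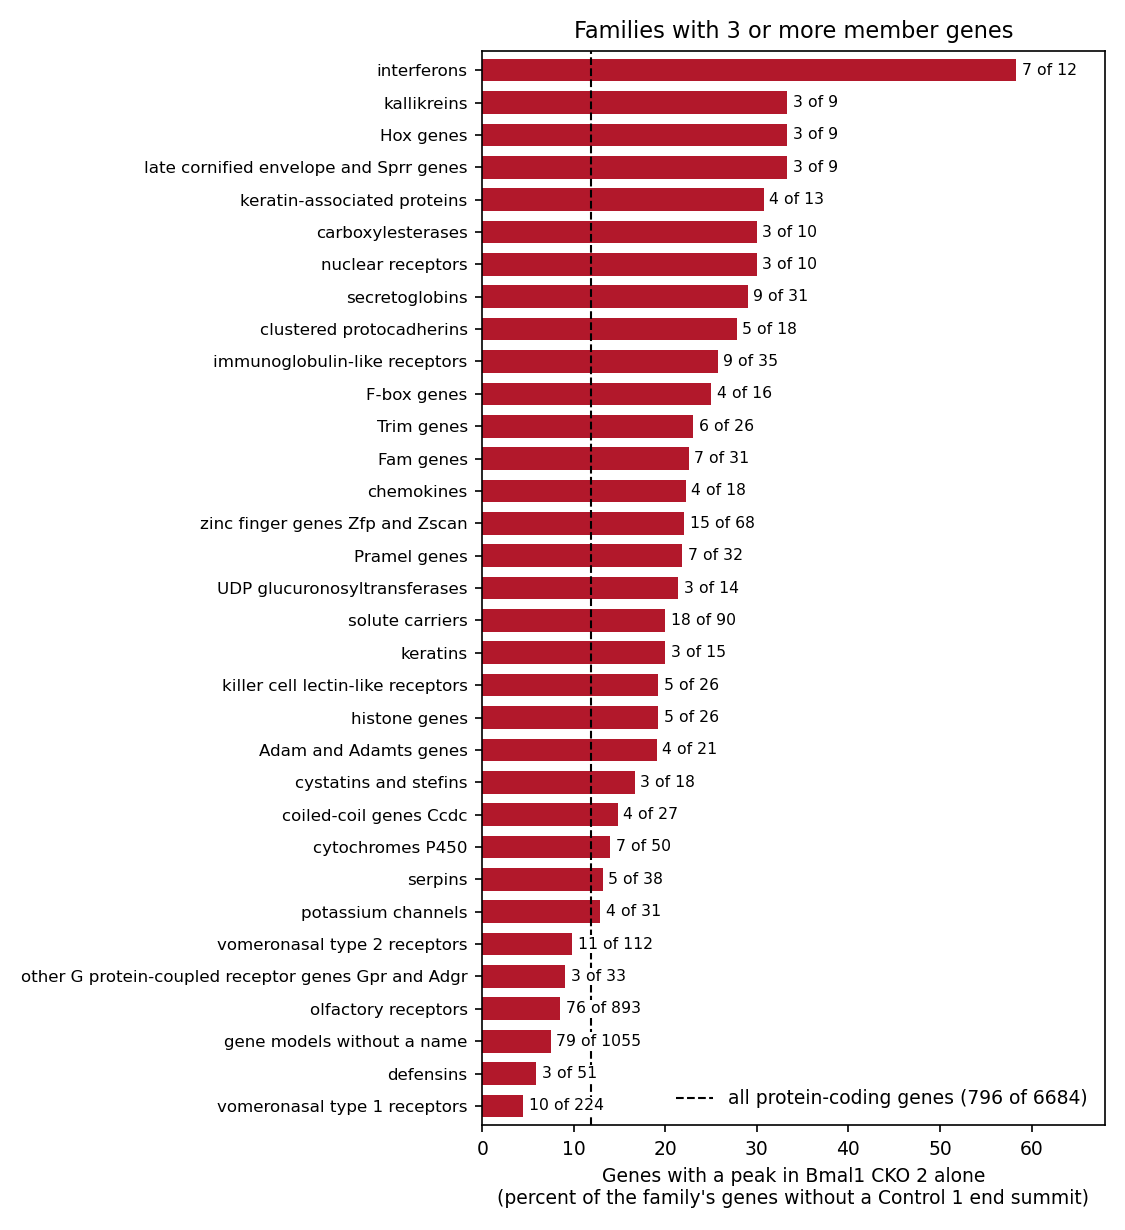
Member genes as a percent of the genes of each family that had no Control 1 end summit (bars, with counts), for the 33 families with 3 or more member genes. The dashed line is the share over all protein-coding genes, 11.9%; interferons stand highest at 7 of 12, and vomeronasal type 1 receptors lowest at 10 of 224.

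Interferons had the largest share of any family with 3 or more members. Type I interferons are antiviral cytokines encoded by short, closely related genes in 1 array on chromosome 4. There were 7 member genes of 20 (35.0%), and 7 of the 12 without a Control 1 end summit (58.3%), against 3 in Control 1 alone. The strongest were Ifna12 (fold 4.10), Ifnab (4.02), Ifna5 (3.95) and Ifne (3.81), each with 25 to 27 fragments over 5.83 to 5.96. Ifna13 (3.34), Ifna15 (3.37) and Ifna9 (3.07) were weaker. The 7 genes lie in 1 stretch of the chromosome and are alike in sequence, so they are not independent of each other.

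That array was the run with the most member peaks when peaks up to 100 kb apart were joined. Between the first and last summit (chromosome 4, 88557869 to 88880012) lay 11 member peaks at 10 genes, the 7 interferons and the gene models Gm13271, Gm13275 and Gm13278. The same span held 47 peaks of Bmal1 CKO 2 and 41 of Control 1, so the run was no gap in the Control 1 list. On chromosome 13, 5 member peaks lay at the transporter genes Slc17a1, Slc17a2 and Slc17a3 (13 Bmal1 CKO 2 peaks and 6 Control 1 peaks in the span). On chromosome 11, 4 lay at the immune genes Sectm1a and Sectm1b, in a span with 5 Bmal1 CKO 2 peaks and 0 Control 1 peaks. On chromosome 9, 4 lay at Gsta1 and the oocyte genes Omt2b and Ooep, among 22 Control 1 peaks. On chromosome 19, 4 lay at Fam111a, Gm4952, Olfr1443 and Cntf, the gene of a neurotrophic factor. Member genes were found on every autosome and on X, but at 0 of 256 genes of Y, and they were most frequent on chromosomes 7 (108 of 2030 genes, 5.32%) and 1 (64 of 1204, 5.32%).

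Other immune families followed. Killer cell lectin-like receptors, which govern natural killer cells, had 5 member genes of 29 (17.2%), among them Klra4 (fold 3.66), Klrb1 (3.51), Klra5 (3.37) and Klri1 (3.07), and 1 in Control 1 alone. Immunoglobulin-like and C-type lectin receptors had 9 of 58 (15.5%), led by Lilrb4a (4.10), Clec1b (3.66), Clec2f (3.65) and Clec12a (3.17), with 11 in Control 1 alone. Of their genes without a Control 1 end summit, 5 of 26 and 9 of 35 were members. Chemokines had 4 of 39 (18 eligible), namely Ccl8 (3.37), Cxcl13 (3.07), Xcl1 (2.93) and Cxcl16 (2.55). Defensins, the antimicrobial peptides, had 3 of 71 (Defa29 3.87, Defb10 2.93, Defb35 2.71), with 51 eligible. The Trim ubiquitin ligases had 6 of 68 (26 eligible), at 5 peaks, since Trim60 and Trim61 shared 1 (fold 2.78); Trim34a (3.22) and Trim69 (2.93) had their own.

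Families of secreted and reproductive proteins gave further members. Secretoglobins, small proteins of gland secretions, had 9 of 40 (22.5%), all on chromosome 7, and 4 in Control 1 alone; Scgb1b17 (fold 3.44), Scgb1b10 (3.22), Scgb2b19 (3.07) and Scgb2b6 (2.93) led them. The germ-line Pramel genes had 7 of 49 (14.3%), with Pramel16 (3.76) and Pramel31 (3.22) after Pramel40 and Pramel48, and 3 in Control 1 alone. Their shares of genes without a Control 1 end summit were 29.0% and 21.9%. Kallikreins, serine proteases of glands, had 3 of 27 with 9 eligible (Klk1b21 2.87, Klk14 2.30, Klk1b22 2.25), and cystatins, protease inhibitors, 3 of 25 with 18 eligible (Cst8 3.07, Cst10 2.93, Cstdc2 2.93). Serpins had 5 of 63 with 38 eligible (Serpine3 2.95, Serpinb12 2.93, Serpinb13 2.93, Serpina10 2.49). Adam proteases had 4 of 59 (21 eligible), with Adam6b (3.51), Adam34 (2.93) and Adamts9 (2.63) after Adam6a.

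Families of liver metabolism and of skin had smaller numbers. Cytochromes P450, which oxidize drugs and lipids, had 7 of 99 with 50 eligible (Cyp2j11 3.37, Cyp2j5 3.22, Cyp4a12a 3.22, Cyp2a5 3.10), against 20 in Control 1 alone. Carboxylesterases had 3 of 19 with 10 eligible (Ces3a 3.51, Ces1e 3.06, Ces1d 2.98). The UDP glucuronosyltransferases had 3 of 22 (14 eligible) at only 2 peaks, because Ugt1a5, Ugt1a7c and Ugt1a9 end at the same place. In the skin families, keratins had 3 of 53 with 15 eligible (Krt33b 3.04, Krt33a 2.33, Krt79 2.31), keratin-associated proteins of hair 4 of 56 with 13 eligible (Krtap13-1 3.66, Krtap24-1 3.22, Krtap22-2 2.93, Krtap31-2 2.59) and cornified envelope genes 3 of 35 with 9 eligible (Sprr2h 3.66, Sprr2i 3.22, Sprr2d 2.93). Control 1 alone had more genes than the members in each of these skin families, 20, 10 and 10, as it did over all genes (14.5% against 3.63%).

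Among the remaining families of membrane and regulatory proteins, solute carriers and zinc finger genes had the largest counts. The Zfp and Zscan genes, mostly DNA-binding repressors, had 15 of 471 (3.18%), with Zbtb3 counted among the 15, and 41 in Control 1 alone. The leading members were Zscan4c, Zfp972, Zscan4b (fold 3.37) and Zfp260 (3.24). Only 68 of the 471 were eligible, and 22.1% of those were members. Solute carriers, transporters of ions and small molecules, had 18 of 375 (4.80%, 90 eligible), led by Slc17a2 (3.42), Slc13a1 (3.07), Slc17a1 (2.95) and Slc8a1 (2.93), and 65 in Control 1 alone. The nuclear receptors, ligand-activated transcription factors, had 3 of 45 (10 eligible): Rarb (3.51), a retinoic acid receptor, Nr1h4 (2.67), the bile acid receptor, and Esrrg (2.21), an orphan receptor. The Hox genes, which pattern the body axis, had Hoxa9 (2.55), Hoxb4 (2.43) and Hoxc9 (2.13) of 39, with 9 eligible. Potassium channel genes had 4 of 94 with 31 eligible (Kcnip1 3.07, Kcnk10 2.90, Kcnj14 2.32, Kcnj4 2.00), other receptors of the Gpr and Adgr groups 3 of 102 with 33 eligible (Adgrb3 3.66, Gpr1 3.25, Gpr141b 2.49), and clustered protocadherins, neuronal adhesion proteins, 5 of 57 with 18 eligible (Pcdhb17 3.34, Pcdhb7 3.22, Pcdhb22 3.18, Pcdha9 3.06).

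The last families were of mixed function. Histone genes had 5 of 98 (26 eligible) at 4 peaks (H2al1f 4.02 and H2al1j 3.48 on the X chromosome, H2ac13 and H2bc13 at 1 peak of 3.14). F-box genes had 4 of 78 with 16 eligible (Fbxw18 4.10, Fbxw21 3.02, Fbxo33 2.83, Fbxw16 2.65), coiled-coil genes 4 of 137 with 27 eligible (Ccdc70 3.22, Ccdc83 3.09, Ccdc65 2.68, Ccdc27 2.54) and Fam genes 7 of 175 with 31 eligible (Fam111a 3.44, Fam217a 3.27, Fam122c 3.22, Fam47c 2.78). Gene models without a name, many of them predicted copies, had 79 of 1948 (4.06%), or 7.49% of those without a Control 1 end summit.

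Families used in nearly every cell had few members and few eligible genes. Housekeeping families such as those of the proteasome and the respiratory chain together had 5 of 375 genes (1.33%), among them Cox6b2, Psmb3 and Atp5g3, with folds of 2.69, 2.47 and 2.38. Of these 375 genes, 320 had an end summit in both libraries, and only 35 were eligible, of which the 5 members were 14.3%, beside 11.9% of all genes. Genes of the Wnt, Fgf, collagen and Hox families had 6 of 124 (4.84%) as members, or 6 of 34 eligible genes (17.6%), and 52 (41.9%) in Control 1 alone. Of the 80 families, 13 had no member gene. Among them the Wnt genes had 0 (3 eligible) against 12 in Control 1 alone, and the Ly6 genes 0 (9 eligible) against 11. Over all protein-coding genes Control 1 alone had 14.5% and the members 3.63%, so larger counts for Control 1 are the rule. Control 1 alone had more genes than the members in 58 families and fewer in 16. The 16 included both vomeronasal families, interferons, secretoglobins, Pramel genes and killer cell lectin-like receptors.

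Among the lists of tissue marker genes, 23 of 37 had a member and 6 had 3 or more. Markers of 6 retinal cell classes together had 4 member genes of 96 (4.17%), near the 3.63% of all genes, and 25 in Control 1 alone. All 4 are named. Opn1mw had 18 fragments over 5.83 at a summit 106 bp before its start (fold 2.78, −log10 q-value 2.71). Grk1, the rhodopsin kinase of photoreceptors, had 37 over 16.9, 60 bp before its start (fold 2.12). Sox2, a transcription factor kept in Müller glia, had 27 over 9.92, 349 bp before its start (fold 2.56), and a Control 1 peak lay 279 bp from this peak. Isl2, a ganglion cell transcription factor, had 29 over 14.3 inside its other end (fold 1.96), with a Control 1 peak 166 bp away. The folds of these 4 genes were all below the member median of 2.83.

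No member gene was on the rod list (0 of 20, 8 eligible) or the bipolar list (0 of 15, 4 eligible). The amacrine and horizontal list had 0 of 15 (4 eligible). Pigment epithelium had 0 of 13 (6 eligible), and microglia and vessels 0 of 15 (7 eligible). The thyroid hormone list had 0 of 15 (4 eligible). Since 3.63% of all genes and 11.9% of eligible ones were members, lists this short can hold 0 without differing from all genes. Crx was on none of these lists. Grk1, the rhodopsin kinase, was placed on the cone list and not on the rod list, so these counts set no contrast between cones and rods. Of the 22 clock genes (3 eligible) only Dbp, a clock output transcription factor, was a member (4.55%, beside 3.63% of all genes). The Dbp peak had 43 fragments over 20.7 at a summit 74 bp before the gene start (fold 2.03, −log10 q-value 3.00). Car11, a carbonic anhydrase-related gene, shared this summit, and the nearest Control 1 peak lay 5980 bp away. Both libraries had an end summit at 13 clock genes, and Control 1 alone at 6.

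Some member genes with a role in the retina or the clock lay outside the lists and were picked after their values were seen. Arntl2, the paralogue of Bmal1, had 28 fragments over 10.04 at a summit 726 bp inside its start (fold 2.63), 270 bp from a Control 1 peak. Abca4, the retinoid transporter of photoreceptor discs, had 37 over 13.2, 671 bp inside its start (fold 2.67). Mpp4, a scaffold protein of photoreceptors, had 32 over 11.4, 160 bp inside its start (fold 2.67).

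The tissue lists with 3 or more members belonged to organs other than the retina, and their counts were small. A cut at 3 members favours longer lists: these 6 held 26 to 40 genes, and the lists of retinal cell classes 15 to 20. The cone list, with Opn1mw and Grk1, had 2 members of 16 genes (12.5%), of which 8 were eligible. That share lay within the range of the 6 longer lists, 8.57% (brain) to 13.3% (T and natural killer cells). Of their eligible genes, 14.3% (intestine and stomach) to 33.3% (oocyte) were members. The oocyte and early embryo list had 5 of 40: Zscan4c, Omt2b (fold 3.23), Ooep (3.15), Nlrp5 (3.07) and Tcl1 (2.83). Ooep and Nlrp5 belong to the maternal complex under the oocyte membrane, and Omt2b and Ooep lie in the run on chromosome 9. The T and natural killer cell list had 4 of 30: Ctla4 (3.05), the inhibitory receptor, Cd8b1 (2.94), Klrb1c (2.82) and Cd247 (2.47). The liver list had 3 of 26: F2 (3.47), prothrombin, Tat (2.75) and F12 (2.07).

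The intestine and stomach list had 3 of 27: Fabp2 (3.47) and Fabp1 (2.41), fatty acid binding proteins, and Alpi (2.32), intestinal alkaline phosphatase. The epidermis list had 3 of 31 (Casp14 2.97, Lipn 2.78, Dsc1 2.63). The brain list had 3 of 35: Npvf (3.16), a neuropeptide, Htr1a (2.76), a serotonin receptor, and Dbh (2.60), the enzyme that makes noradrenaline. All lists of other tissues together had 34 of 594 (5.72%), and these were 34 of their 283 genes without a Control 1 end summit, a share next to the 11.9% of all genes. Control 1 alone had more genes than the members in 34 of the 37 lists, as it did over all genes (14.5% against 3.63%).

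**Figure D5:**
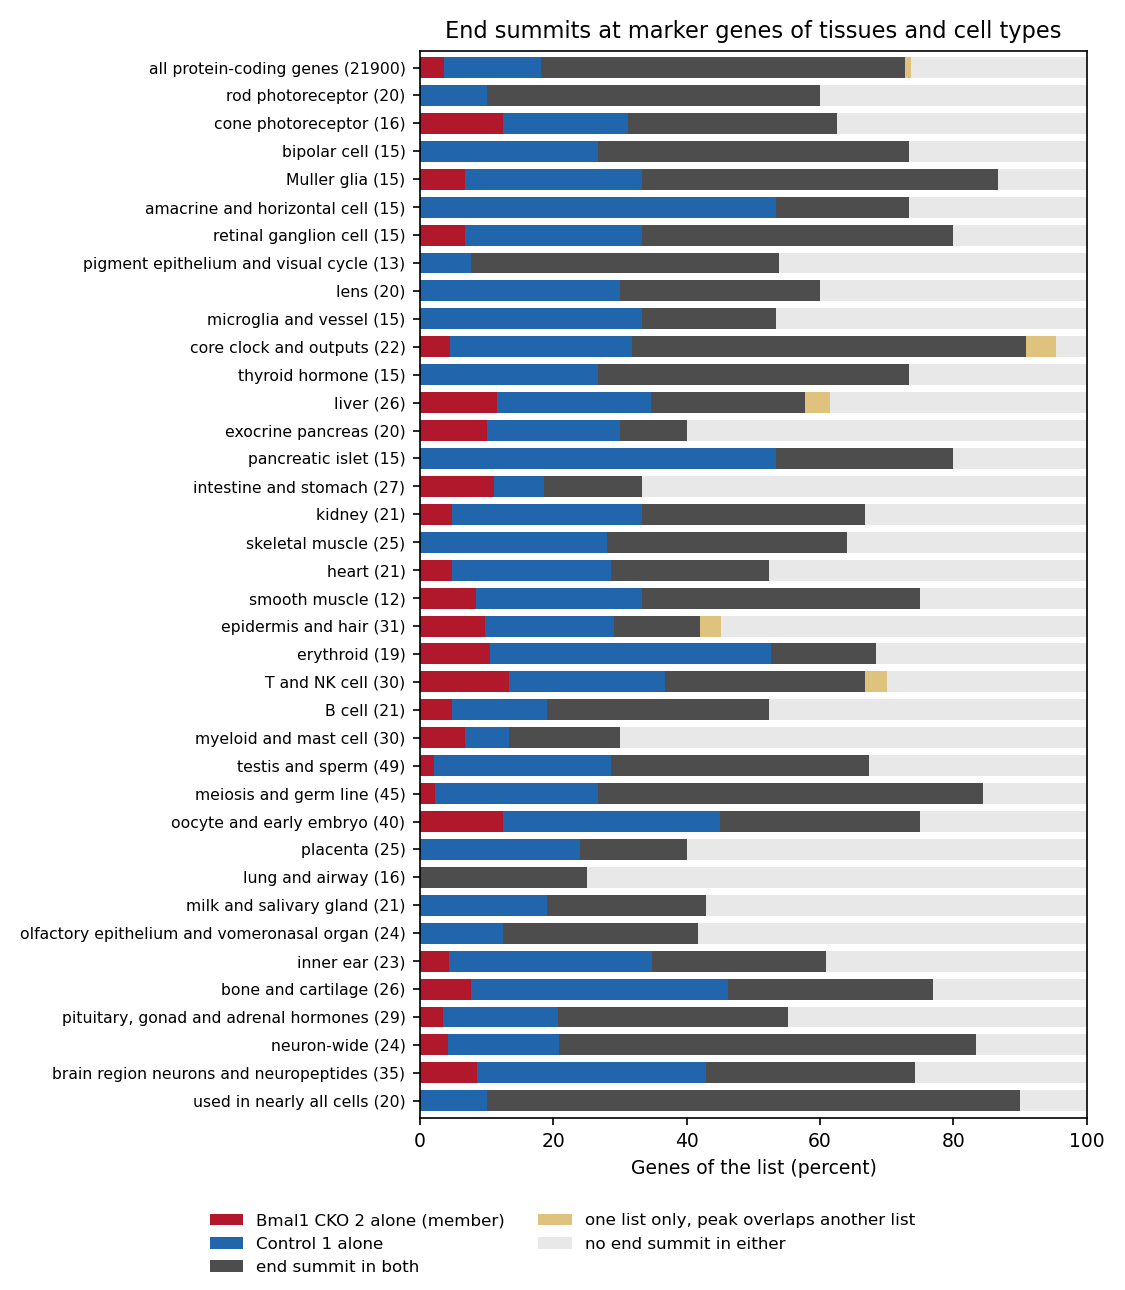
Genes of each marker list (number in brackets) by where end summits were called, in percent of the list (horizontal axis). Red segments are member genes, 3.63% of all protein-coding genes in the top bar. Blue segments, Control 1 alone (14.5% in the top bar), are longer than the red ones in 34 of the 37 lists.

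Gene length moved with these counts. Member genes had a median length of 12090.5 bp, genes with an end summit in both libraries 23574 bp, and genes with one in neither 8540.5 bp. Genes of 2 kb or less, for which the windows around both ends join, made up 149 of the member genes (18.7%) and 11.9% of all protein-coding genes. Of all genes that short 5.74% were members, and of longer ones 3.35%. Among the genes without a Control 1 end summit the order turned, with 9.15% of the short and 12.8% of the longer genes. Short olfactory receptor genes were members in 7.09% of cases and longer ones in 5.30% (8 of 151). Among those without a Control 1 end summit the shares were 8.80% of 773 short and 6.67% of 120 longer genes. Short olfactory receptor genes were thus close to the 9.15% of all short genes.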

How the data were processed

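Each of the 6 libraries came as 1 MACS2 peak list. Trim Galore, Bowtie2, MACS2 and the build mm10 are named in the submitters' processing notes; their versions and parameters, any input library and the handling of reads with several placements are not stated in those notes. The authors deposited for each peak the summit offset, a whole-number score, the p-value and the q-value as −log10 and, as a ratio, the fold enrichment at the summit. Their values were used within a list only. Depth is not given; fragments at the summit and background were solved from fold and p-value, assuming a pseudocount of 1 and a Poisson p-value, and the fragments came out whole (within 0.02) for 100% of the peaks solved (a sample of 3000 in each long list). Whether the libraries came from separate animals is stated only by the design.

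Overlaps of at least 1 bp, distances from summits to gene ends and counts were computed in Python 3.11.15 with numpy 2.4.6, pandas 2.3.3 and scipy 1.17.1 (figures: matplotlib 3.10.9), and tested on simulated peaks. Genes were the 21900 protein-coding genes of RefSeq GRCm38.p6. Strand and start windows were at hand for 17492 of them. No test was made, since all members come from 1 library. The members, families and lists were chosen with earlier results of these data known, and several symbol patterns were corrected after the first counts were seen. The share among genes without a Control 1 end summit, the near-copy measure and the length classes were added after the data were seen. Named genes were the 25 peaks of highest −log10 q-value, up to 4 genes of highest fold in each family or list with 3 or more member genes, all members of the retinal, clock and thyroid hormone lists, and the 3 peaks on either side of the 1 kb edge, of which some items are not reported here; other names are marked in the text, or belong to a count or run given there.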

Additional observations from a re-analysis of the deposited data

How the results depend on the processing

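Control 1 decided the set: without it, 15404 peaks at 12841 genes met the rule, and over the 5 lists left out in turn, Control 1 included, the counts ran from 832 to 15404 peaks and from 796 to 12841 genes. A −log10 q-value of at least 5 left 132 peaks at 134 genes, and dropping the condition on Control 1 summits at the gene gave 2273 peaks at 2310 genes. The other settings kept both counts within 1.5 times of 832 and 796. These were windows of 500 bp (737 peaks) and 2 kb (865), a −log10 q-value of at least 3 (592), overlap by 50% of the peak (842), a slack of 500 bp (778), the Control 1 condition at 2 kb (563), no gene models (751), and, added after the data were seen, no genes of 2 kb or less (672 peaks at 647 genes). With the 500 bp window 531 of the 796 genes were shared with the main set, and with the 2 kb window 534.

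The share of chemosensory receptors among member genes, 12.7%, was 18.7% with only q-values past that limit of 5, 15.8% with the 2 kb window, 5.15% without the Control 1 condition, 3.09% without genes of 2 kb or less and 1.93% without Control 1. Of the shares of 5 gene groups under all settings, 59 stayed within the 95% interval of the reported share and 16 did not. The 59 include the settings that left out a list other than Control 1. Those gave 796 or 798 genes and could hardly move a share. Without Control 1, the shares of chemosensory receptors, gene models and housekeeping families left their intervals, and those of zinc finger genes and retinal cell classes did not. No paired analysis was possible because the members come from 1 library and no result comes from a test. The floor of 5.83 background fragments limits what could be called at any single gene.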
